A study of Homo sapiens with 8 samples.

Results

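The aminoacyl-tRNA synthetase genes were followed by RNA sequencing in U87 cells, a human glioblastoma line, exposed to AsiDNA, to belinostat or to both. A list of 35 synthetase genes was used, 19 of them encoding cytosolic enzymes and 16 encoding mitochondrial enzymes. Each symbol was matched to 1 gene of the 58884 in the deposited count table. All 35 passed the filter on low counts and were among the 14741 genes tested.

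There were 4 groups with 2 libraries each. The combination group had received long-term AsiDNA and then belinostat, the belinostat group had received belinostat without AsiDNA, the AsiDNA group had received long-term AsiDNA alone, and the control group had received DMSO, the solvent. Belinostat, a hydroxamate inhibitor of histone deacetylases, was given at 1 µM for 24 h. AsiDNA is a short double-stranded DNA that mimics a DNA break. The sources used here give neither its dose and duration nor the meaning of 2 culture names, MTU87 and LTAU87, that appear in the treatment notes. All groups were grown in the same serum-containing medium. The labels do not say whether replicates were separate cultures, so p-values measure only the spread between these libraries, which may be technical.

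A synthetase joins 1 amino acid to the tRNAs that read its codons, and so sets the genetic code at the ribosome. Human cells use separate nuclear genes for most of the cytosolic enzymes (names ending in 1, or FARSA and FARSB) and for the mitochondrial enzymes (names ending in 2), which charge the tRNAs encoded by mitochondrial DNA. Several cytosolic enzymes are bound in a large multi-synthetase complex held together by the scaffold proteins AIMP1, AIMP2 and EEF1E1, and many cytosolic synthetase genes are known targets of ATF4, the transcription factor of the amino acid response.

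The libraries held between 6057394 and 9699637 counts. A count of 3 in a library corresponded to between 0.309 and 0.495 CPM (counts scaled to a common library size). The lowest count of a member was 12, for SARS2, so every member was detected in every library. The nuclear RNAs MALAT1 and NEAT1 took 3.12% and 2.06% of the counts in combination libraries, 12.2% and 13.4% in belinostat libraries, 0.753% and 0.688% in AsiDNA libraries, and 0.911% and 2.81% in DMSO libraries. The DMSO libraries differed most from each other, with 11.5% of 8325 well-expressed genes apart by over 1.5-fold, against 0.372% to 0.865% in the other groups. The part of these differences in the results below was not tested. Among markers, the mesenchymal genes VIM, CD44, TNC, FN1 and CAV1, which U87 cells are known for, lay between 507 and 33190 CPM in every library. The glial genes GFAP, S100B and AQP4 stayed at or under 0.487 CPM and SOX10 was at 0, while OLIG2 lay between 0.508 and 1.57 CPM and MBP between 2.03 and 11.9 CPM. The 6 glial genes summed to 5.01 and 6.66 CPM in combination libraries, 3.75 and 2.88 CPM in belinostat libraries, 10.0 and 13.1 CPM in AsiDNA libraries, and 8.08 and 8.87 CPM in DMSO libraries. Of 12 markers of neurons, immune cells, endothelium and epithelium, STMN2, CD3E and CDH5 were at 0. The 12 summed to 20.5 and 23.3 CPM in combination libraries, 30.4 and 25.4 CPM in belinostat libraries, 7.12 and 10.2 CPM in AsiDNA libraries, and 8.18 and 7.90 CPM in DMSO libraries, with PECAM1 the highest at up to 20.6 CPM.

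Summed over the cytosolic synthetase genes, the level was low in belinostat libraries and not in combination libraries, though single genes differed from this. Their summed level was 2901 and 2942 CPM in combination libraries, 2168 and 2039 CPM in belinostat libraries, 2998 and 2944 CPM in AsiDNA libraries, and 2875 and 2339 CPM in DMSO libraries. Both belinostat libraries lay below the other 6 libraries. Their gap to the lower DMSO library was under the distance between the DMSO replicates. The mitochondrial genes summed to 635 and 647 CPM in combination libraries, 707 and 716 CPM in belinostat libraries, 697 and 645 CPM in AsiDNA libraries, and 657 and 657 CPM in DMSO libraries. The belinostat libraries were the highest of the 8, with belinostat replicate 1 at 707 CPM close above AsiDNA replicate 1 at 697 CPM. VARS2 was left out after its values were seen, and no other gene was left out in this way. The other 15 then summed to 593 and 616 CPM in combination libraries and 627 and 641 CPM in belinostat libraries. They summed to 671 and 623 CPM in AsiDNA libraries and 637 and 626 CPM in DMSO libraries. The belinostat libraries then lay within the range of the AsiDNA libraries. CPM values are relative to the other RNAs of a library and do not give the amount of RNA per cell.

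**Figure D1:**
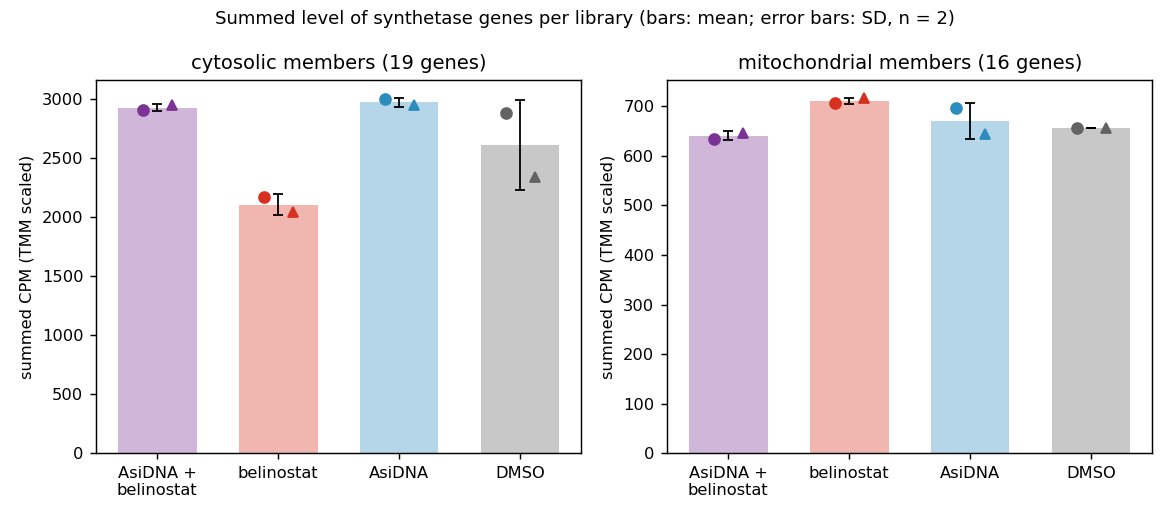
Summed CPM (scaled by the trimmed mean of M-values, TMM) of the 19 cytosolic genes on the left and the 16 mitochondrial genes on the right. Bars are group means, error bars are the SD (n = 2), circles are replicate 1 and triangles replicate 2. The belinostat libraries are the lowest on the left, at 2168 and 2039 CPM, and the highest on the right, at 707 and 716 CPM. Without VARS2 they are not the highest on the right.

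Levels were compared between genes per kilobase of merged exons. Merged exons join those of all annotated transcripts of a gene and can be longer than its mRNA, so ranks and medians per kilobase depend on the annotation. In DMSO cells FARSA, with 81.0 CPM over 2435 bases, ranked 6, and HARS1, with 84.9 CPM over 7853 bases, ranked 21. In DMSO cells the order was led by the cytosolic genes IARS1 with 50.2 ± 9.14 CPM per kb, NARS1 with 47.5 ± 8.86 CPM per kb and RARS1 with 38.8 ± 7.66 CPM per kb (SD, n = 2 each). From IARS1 down to LARS1, at 29.9 ± 4.66 CPM per kb and rank 10, each gene differed from the next by less than the larger of their SDs. The isoleucyl enzymes were the highest of both compartments, since IARS2, with 31.7 ± 6.24 CPM per kb, ranked 9 of 35 and first among the mitochondrial genes. CARS1, with 6.19 ± 1.00 CPM per kb, ranked 26 and was the lowest cytosolic gene in DMSO cells. SARS2 was the lowest of all with 1.73 ± 0.456 CPM per kb.

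The median level per kilobase was higher for cytosolic than for mitochondrial genes in every group. It was 25.8 against 5.91 CPM per kb in combination cells, 17.6 against 5.90 in belinostat cells, 31.1 against 6.97 in AsiDNA cells, and 28.7 against 5.67 in DMSO cells. RARS1, which charges arginine tRNAs, was the highest gene in both belinostat-treated groups, with 63.3 CPM per kb in combination cells and 57.5 CPM per kb in belinostat cells. IARS1 was the highest in AsiDNA cells, with 62.0 CPM per kb. SARS2, for mitochondrial serine tRNAs, was the lowest in all 4 groups, and 46.2% of its exonic length overlapped another gene on the same strand, so its counts are uncertain.

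**Figure D2:**
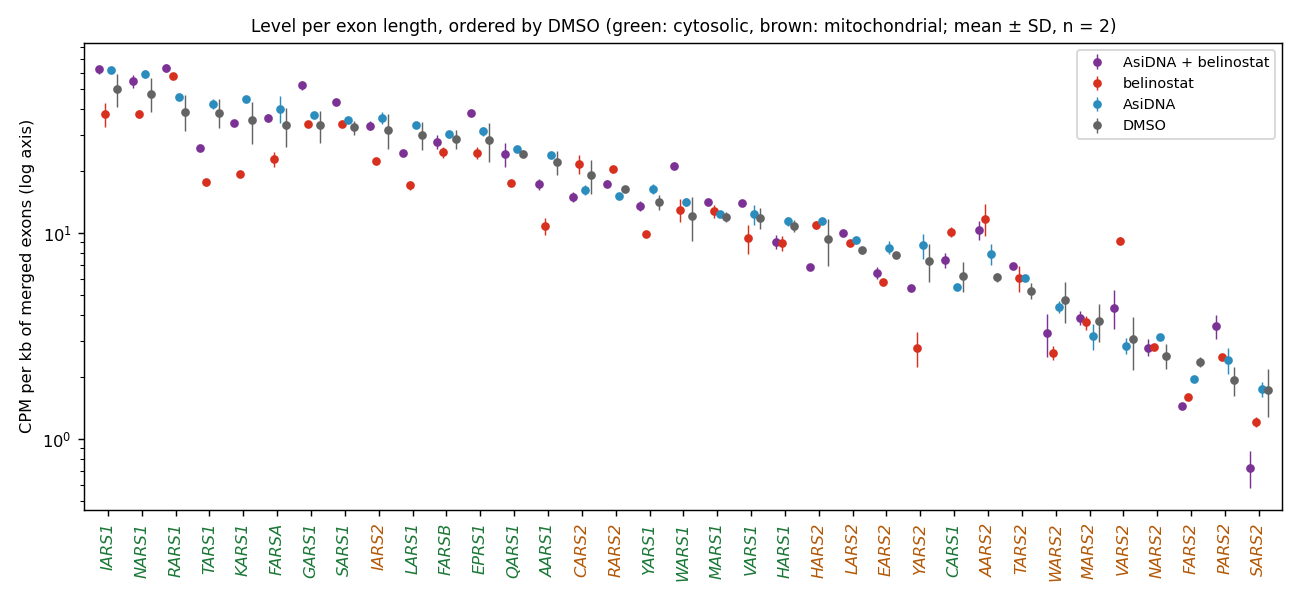
Level of each gene in CPM per kb of merged exons on a log axis, as group mean ± SD (n = 2), ordered by the level in DMSO cells. Cytosolic names are green and mitochondrial names brown. IARS1 leads in DMSO cells at 50.2 CPM per kb and SARS2 is last at 1.73 CPM per kb.

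A promoter element that ATF4 and C/EBP proteins are known to bind was looked up in the synthetase promoters, and it was more frequent in cytosolic than in mitochondrial genes. The 8-base motif TGATGNAA was searched on both strands of windows from 250 bases before to 50 bases after the gene start, in RefSeq's promoter table for GRCh38.p14. Of the 35 members, 30 had a window; VARS1, VARS2, AARS2, LARS1 and YARS1 are named only. The motif was found in 7 of 16 cytosolic genes (43.8%), in 1 of 14 mitochondrial genes (7.14%), and in 1217 of all 27305 genes with a window (4.46%). All 7 cytosolic matches belonged to the 13 cytosolic genes listed as known targets of the amino acid response, of which 10 had a window. The other 6 cytosolic genes (FARSA, FARSB, HARS1, KARS1, QARS1 and RARS1) had none. A match describes the letters and is no evidence of binding. The 30 bases around each match are shown 5′ to 3′ on the gene's strand, from RefSeq (GRCh38.p14), to let the matches be compared, with the motif or its reverse complement in capitals.
TARS1, chr5:33440956-33440985, plus strand: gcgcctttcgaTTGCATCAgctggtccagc
GARS1, chr7:30594834-30594863, plus strand: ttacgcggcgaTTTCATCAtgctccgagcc
IARS1, chr9:92293692-92293721, minus strand: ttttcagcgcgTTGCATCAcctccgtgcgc
CARS1, chr11:3057407-3057436, minus strand: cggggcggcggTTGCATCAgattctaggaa
MARS1, chr12:57488053-57488082, plus strand: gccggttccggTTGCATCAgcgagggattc
AARS1, chr16:70289675-70289704, minus strand: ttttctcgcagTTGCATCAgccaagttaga
NARS1, chr18:57621804-57621833, minus strand: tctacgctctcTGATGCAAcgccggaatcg
YARS2, chr12:32756076-32756105, minus strand: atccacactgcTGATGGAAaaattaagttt

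The first base of the motif lay 2 bases after the gene start in TARS1 and 14 bases after it in NARS1. It lay 2 bases before the start in CARS1, 4 before it in MARS1, 13 before it in IARS1 and 33 before it in GARS1. AARS1 and YARS2 carried it farther upstream, 187 and 197 bases before the start. In 6 of the 8 genes the site lay in the reverse orientation on the gene's strand, NARS1 and YARS2 being the exceptions. The 8 genes did not move in 1 direction: with belinostat alone 1 was higher than in DMSO cells (CARS1) and 4 were lower (TARS1, AARS1, IARS1 and YARS2), and with the combination 6 were higher than with belinostat alone and 1 (CARS1) was lower. Of all genes tested 29.8% were higher and 27.6% lower with belinostat alone, and 22% and 21.4% in the combination against belinostat.

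Belinostat alone, set against DMSO, lowered more synthetase genes than it raised. Of the 35 members 13 were lower (37.1%), against 27.6% of all genes tested, and 5 were higher (14.3%), against 29.8% of all genes, and the share called in either direction was 51.4%, against 57.4% of all genes. Of the 19 cytosolic genes 8 fell (42.1%) and 2 rose (10.5%), and the median over the 19 was -0.32 on the log2 scale. Of the 16 mitochondrial genes 5 fell (31.2%) and 3 rose (18.8%), with a median of 0.13, against 0.06 over all genes tested. The difference between the compartments was not tested. The threshold was an adjusted p under 0.05 in edgeR's quasi-likelihood test with Benjamini-Hochberg adjustment over all genes, and every adjusted p below comes from it. Where groups are said not to overlap, this describes the 2 libraries of each group. It is no separate support, since its share over all genes tested was not counted.

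TARS1, the threonyl enzyme (chr5:33440696-33469539), fell the most of the cytosolic genes. It had 98.0 and 103 CPM in belinostat libraries and 244 and 194 CPM in DMSO libraries. The log2 fold change was -1.13 ± 0.13 (SE; adjusted p = 1.04e-05). AARS1, the alanyl enzyme (chr16:70252295-70289543), had 51.6 and 45.2 CPM in belinostat libraries against 109 and 89.7 CPM in DMSO libraries, a log2 fold change of -1.03 ± 0.14 (adjusted p = 3.08e-05). In both genes the belinostat libraries lay well below the DMSO libraries, and the gap was larger than that between the DMSO replicates.

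LARS1, the leucyl enzyme that also senses leucine for mTORC1, had 143 and 134 CPM in belinostat libraries against 270 and 216 CPM in DMSO libraries (log2 fold change -0.81 ± 0.13, adjusted p = 0.00014). KARS1, a single gene that supplies lysyl enzyme to both compartments through alternative splicing, had 76.6 and 80.3 CPM in belinostat libraries against 167 and 119 CPM in DMSO libraries (-0.87 ± 0.15, adjusted p = 0.00025). YARS1, the tyrosyl enzyme, had 82.6 and 79.9 CPM against 123 and 109 CPM (-0.51 ± 0.12, adjusted p = 0.00287). In none of the 3 genes did the groups overlap. FARSA, the catalytic alpha subunit of the phenylalanyl enzyme, QARS1 and IARS1 fell as well, by 0.54, 0.47 and 0.41 on the log2 scale. The IARS1 call was lost without DMSO replicate 1 or belinostat replicate 2 (adjusted p up to 0.0964).

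The cytosolic genes that went against this direction were CARS1 and RARS1. CARS1, the cysteinyl enzyme, had 97.1 and 106 CPM in belinostat libraries and 54.9 and 69.2 CPM in DMSO libraries, a log2 fold change of 0.71 ± 0.14 (adjusted p = 0.000673). RARS1 had 199 and 194 CPM in belinostat libraries and 151 and 114 CPM in DMSO libraries, a log2 fold change of 0.57 ± 0.14 (adjusted p = 0.00309). Both belinostat libraries were above both DMSO libraries in each gene. The remaining 9 cytosolic genes were not called, and their log2 fold changes ran from -0.32 in NARS1 and VARS1 to 0.11 in WARS1.

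The mitochondrial genes held the largest changes in both directions. VARS2, for valine tRNAs (chr6:30908242-30926459), had 79.5 and 75.2 CPM in belinostat libraries and 20.4 and 31.0 CPM in DMSO libraries, a log2 fold change of 1.59 ± 0.19 (adjusted p = 1.34e-05), or 3.01-fold. GTF2H4, a transcription and repair factor gene whose exons overlap 22% of the VARS2 exonic length on the same strand, had 10.8 and 11.5 CPM against 0.505 and 2.73 CPM; it was added after its values were seen, and its part in the VARS2 counts was not tested. YARS2 had 5.16 and 6.77 CPM in belinostat libraries and 18.1 and 13.4 CPM in DMSO libraries, a log2 fold change of -1.41 ± 0.23 (adjusted p = 0.000191). These 2 genes stood at opposite ends, with no overlap between groups in either.

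AARS2, the mitochondrial alanyl enzyme, had 56.9 and 44.0 CPM in belinostat libraries and 25.3 and 27.2 CPM in DMSO libraries (log2 fold change 0.95 ± 0.16, adjusted p = 0.000232). WARS2, the mitochondrial tryptophanyl enzyme, had 9.5 and 10.7 CPM in belinostat libraries and 21.1 and 15.2 CPM in DMSO libraries (-0.85 ± 0.22, adjusted p = 0.00529). RARS2 had 51.5 and 52.5 CPM in belinostat libraries and 41.5 and 41.8 CPM in DMSO libraries (0.32 ± 0.13, adjusted p = 0.043). The RARS2 call was the least stable, since it was lost in 6 of the 8 fits that left out 1 library, all but the 2 that left out a DMSO library (adjusted p up to 0.272), and under each of the other scalings, filters, tests and fits tried (adjusted p from 0.0585 to 0.614). FARS2 (-0.56 ± 0.21, adjusted p = 0.0325), IARS2 (-0.50 ± 0.14, adjusted p = 0.00823) and EARS2 (-0.43 ± 0.13, adjusted p = 0.0139) also fell, and FARS2 lost its call without DMSO replicate 1 or either belinostat library (adjusted p up to 0.0672). Over all 15 alternatives the cytosolic median log2 fold change stayed between -0.48 and -0.20, and the mitochondrial median between -0.03 and 0.14. The number of calls moved with the library left out, among all genes tested as well as among the members.

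**Figure D3:**
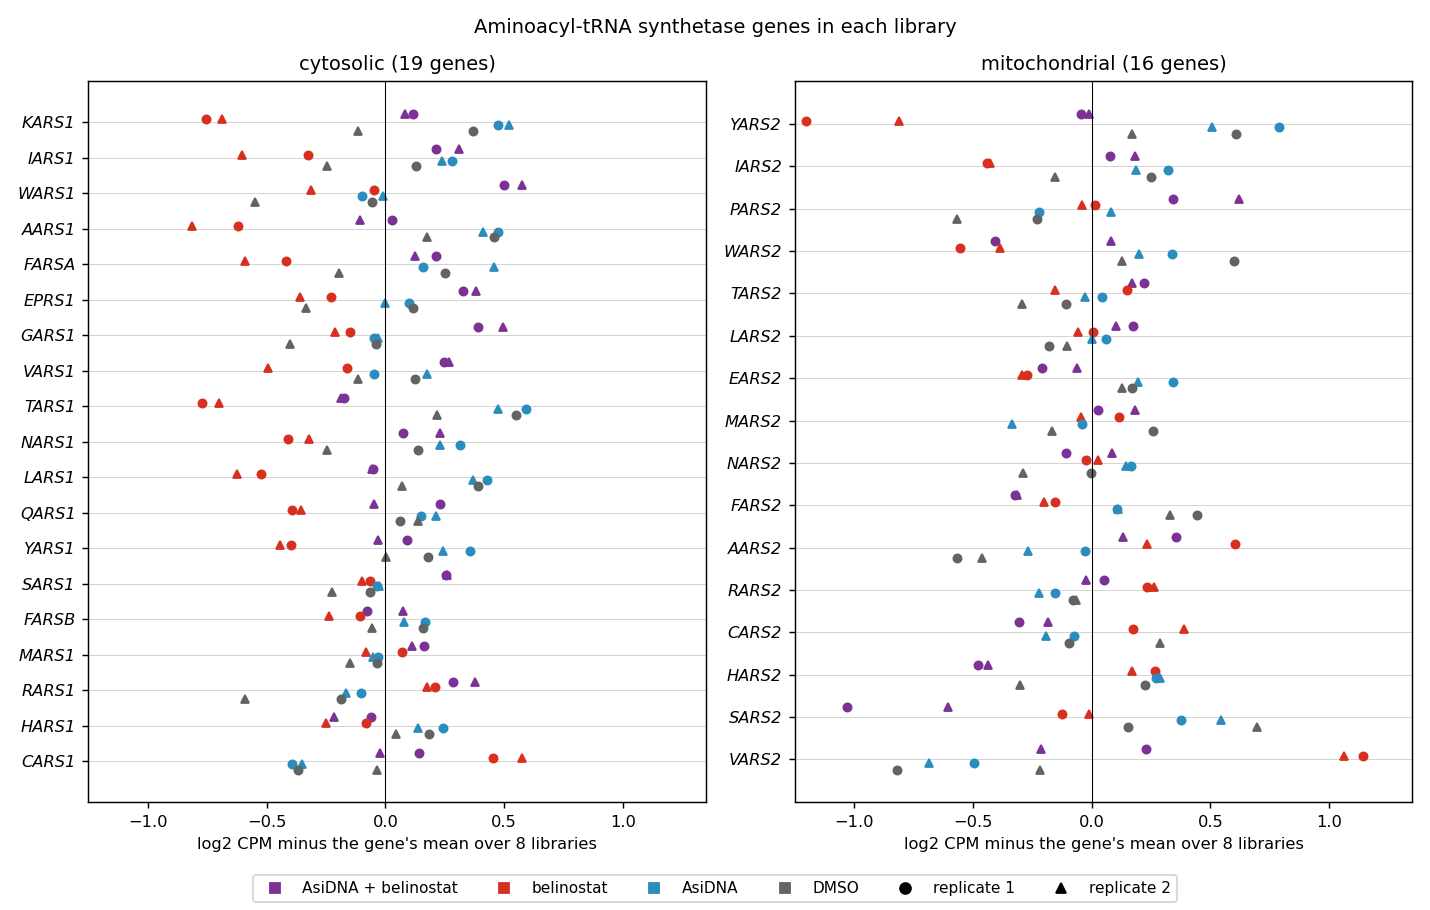
Level of each gene in each library as log2 CPM minus the gene's mean over the 8 libraries, cytosolic on the left and mitochondrial on the right. Colours are the 4 groups, circles replicate 1 and triangles replicate 2. TARS1, AARS1, LARS1 and KARS1 have the belinostat libraries at the left end, while CARS1 and VARS2 have them at the right end, VARS2 at 79.5 and 75.2 CPM.

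Belinostat acting on AsiDNA cells, the combination against AsiDNA alone, gave smaller and more evenly divided calls. There were 5 members higher (14.3%, against 21.7% of all genes tested) and 8 lower (22.9%, against 21.2%), and 37.1% were called in either direction, against 42.9% of all genes. Of the cytosolic genes 4 were higher and 4 lower (median log2 fold change -0.08), and of the mitochondrial genes 1 was higher and 4 lower (median -0.12), against a median of 0.02 over all genes. The cytosolic genes that fell were TARS1, AARS1, LARS1 and KARS1, the same 4 that had the smallest adjusted p without AsiDNA. The cytosolic genes that rose were WARS1, GARS1, RARS1 and CARS1.

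TARS1 had 148 and 147 CPM in combination libraries and 252 and 232 CPM in AsiDNA libraries, a log2 fold change of -0.71 ± 0.13 (adjusted p = 0.000653). WARS1, the tryptophanyl enzyme known as an interferon-induced gene (10.6% of its exonic length overlaps a gene on the opposite strand), had 131 and 139 CPM in combination libraries and 86.8 and 92.4 CPM in AsiDNA libraries (0.59 ± 0.16, adjusted p = 0.00797). GARS1, which like KARS1 serves both compartments from 1 gene, had 209 and 224 CPM in combination libraries and 154 and 156 CPM in AsiDNA libraries (0.48 ± 0.13, adjusted p = 0.00959). The groups did not overlap in these 3 genes, and WARS1 and GARS1 had not been called with belinostat alone (0.11 ± 0.16 and 0.03 ± 0.13, adjusted p = 0.567 and 0.865).

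The other cytosolic genes that rose in the combination were CARS1, with 78.3 and 69.9 CPM in combination libraries against 54.0 and 55.6 CPM in AsiDNA libraries (0.43 ± 0.14, adjusted p = 0.0235), and RARS1, with 210 and 223 CPM against 160 and 154 CPM (0.46 ± 0.14, adjusted p = 0.0143). AARS1, LARS1 and KARS1 fell by 0.48, 0.45 and 0.40 on the log2 scale (adjusted p = 0.0106, 0.0114 and 0.0409).

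Of the mitochondrial genes, HARS2 had 25.2 and 26.0 CPM in combination libraries and 42.4 and 42.9 CPM in AsiDNA libraries, a log2 fold change of -0.74 ± 0.17 (adjusted p = 0.00361). VARS2, the 1 mitochondrial gene that rose, had 42.2 and 31.1 CPM in combination libraries and 25.6 and 22.4 CPM in AsiDNA libraries (0.60 ± 0.20, adjusted p = 0.0279). Neither gene's groups overlapped. SARS2 (-1.24 ± 0.35, adjusted p = 0.0106), YARS2 (-0.69 ± 0.22, adjusted p = 0.0209) and EARS2 (-0.40 ± 0.13, adjusted p = 0.0263) fell as well.

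Only TARS1 and HARS2 of these 13 calls were kept in each of the 8 fits that left out 1 library. The number of calls moved with the library left out, among all genes tested as well as among the members. The cytosolic median log2 fold change was -0.08 without AsiDNA replicate 1 and -0.02 without AsiDNA replicate 2. It was -0.04 without combination replicate 1, -0.07 without combination replicate 2 and -0.09 without either DMSO library. The mitochondrial median lay between -0.20 (without combination replicate 2) and -0.06 (without AsiDNA replicate 1). With library sizes alone as the scaling, which moved the median of all genes to -0.12, 3 members were higher and 11 lower.

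Long-term AsiDNA alone moved no synthetase gene past the threshold. No member was called against DMSO, while 0% of all genes were higher and 0.0204% lower, 3 genes in all. An unadjusted p under 0.05 was reached by 3 members in edgeR, and the share of all genes at that threshold was not counted. DESeq2 also called no member (33 genes in all). The median log2 fold change of the 35 was 0.14, against 0.03 over all genes tested. KARS1 had 180 and 185 CPM in AsiDNA libraries and 167 and 119 CPM in DMSO libraries, a log2 fold change of 0.35 ± 0.14 (adjusted p = 0.398). NARS1 had 248 and 234 CPM in AsiDNA libraries and 220 and 168 CPM in DMSO libraries (0.31 ± 0.14, adjusted p = 0.42), and AARS2 had 36.7 and 31.1 CPM against 25.3 and 27.2 CPM (0.37 ± 0.16, adjusted p = 0.42). IARS1 had 466 and 452 CPM against 419 and 324 CPM (0.31 ± 0.14, adjusted p = 0.439). The AsiDNA libraries were above both DMSO libraries in these genes, but the gap was under the distance between the DMSO replicates in KARS1, NARS1 and IARS1. This absence of calls rested on DMSO replicate 1: without it, 15 members were higher and 2 lower, and so were 18.3% and 13.3% of all genes tested in that fit. In simulated data of the same size 86% of 2-fold changes were called in the belinostat comparison, and no AsiDNA change was simulated. The simulation gave every gene and group the same spread and changed only genes above a minimum count. The wider spread of the DMSO libraries was not in it, so the 86% is no measure of what could be detected here.

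Adding long-term AsiDNA to belinostat, the combination against belinostat alone, gave the most uniform result. Of the 35 members 16 were higher (45.7%), against 22% of all genes tested, and 4 were lower (11.4%), against 21.4% of all genes, so 57.1% were called in either direction, against 43.4% of all genes. The 19 cytosolic genes included 14 that rose and 1 that fell, and their median log2 fold change was 0.52. Among the 16 mitochondrial genes 2 rose and 3 fell, with a median of 0.03, against -0.01 over all genes tested. The belinostat libraries are shared with the comparison against DMSO, so a low value in them lowers one comparison and raises the other.

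KARS1 (chr16:75627474-75648643) had 140 and 137 CPM in combination libraries and 76.6 and 80.3 CPM in belinostat libraries, a log2 fold change of 0.82 ± 0.15 (adjusted p = 0.00116), or 1.76-fold. IARS1 (chr9:92210207-92293756) had 445 and 474 CPM in combination libraries and 306 and 252 CPM in belinostat libraries (0.72 ± 0.15, adjusted p = 0.00198). AARS1 had 80.9 and 73.8 CPM in combination libraries and 51.6 and 45.2 CPM in belinostat libraries (0.67 ± 0.14, adjusted p = 0.00235). Each combination library was above each belinostat library in all 3 genes.

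EPRS1, which carries the glutamyl and the prolyl activity in 1 protein, had 205 and 213 CPM in combination libraries and 139 and 127 CPM in belinostat libraries (0.65 ± 0.15, adjusted p = 0.00358). WARS1 had 131 and 139 CPM in combination libraries and 90.1 and 74.9 CPM in belinostat libraries (0.71 ± 0.16, adjusted p = 0.00351). GARS1 had 209 and 224 CPM in combination libraries and 144 and 138 CPM in belinostat libraries (0.62 ± 0.13, adjusted p = 0.00274). The groups did not overlap in any of the 3. The phenylalanyl enzyme is built of the FARSA and FARSB subunits in equal number, and 1 of its genes was called: FARSA had 90.9 and 85.5 CPM in combination libraries against 58.8 and 52.2 CPM in belinostat libraries (0.67 ± 0.16, adjusted p = 0.0058), while FARSB had 88.3 and 98.1 CPM against 86.6 and 79.1 CPM (0.17 ± 0.13, adjusted p = 0.306). The difference between the subunits was not tested.

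The other cytosolic genes that rose were VARS1, TARS1, LARS1, NARS1, QARS1, YARS1 and SARS1, with log2 fold changes from 0.34 in SARS1 to 0.57 in VARS1. HARS1, MARS1, RARS1 and FARSB were not called, with log2 fold changes of 0.02, 0.14, 0.14 and 0.17. CARS1 was the 1 cytosolic gene that fell, with 78.3 and 69.9 CPM in combination libraries and 97.1 and 106 CPM in belinostat libraries (-0.45 ± 0.14, adjusted p = 0.0181). In CARS1 the belinostat libraries were the highest of the 8.

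Among mitochondrial genes VARS2 fell, with 42.2 and 31.1 CPM in combination libraries against 79.5 and 75.2 CPM in belinostat libraries (-1.09 ± 0.19, adjusted p = 0.000996), or 0.471 times the belinostat level. HARS2 fell, with 25.2 and 26.0 CPM against 42.2 and 39.5 CPM (-0.68 ± 0.17, adjusted p = 0.0074), and CARS2 fell, with 150 and 163 CPM against 208 and 242 CPM (-0.52 ± 0.14, adjusted p = 0.0104). YARS2 rose, with 11.5 and 11.8 CPM against 5.16 and 6.77 CPM (0.98 ± 0.25, adjusted p = 0.00655), and so did IARS2 (0.57 ± 0.14, adjusted p = 0.00654). None of these 5 genes had overlapping groups.

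The calls of 11 of the 16 higher members were kept in each of the 8 fits that left out 1 library (KARS1, IARS1, AARS1, EPRS1, WARS1, GARS1, FARSA, TARS1, LARS1, YARS1 and IARS2). NARS1 was lost without combination replicate 2, QARS1 without combination replicate 1, VARS1 without belinostat replicate 2, YARS2 without belinostat replicate 1, and SARS1 without any 1 of the 6 libraries other than DMSO (adjusted p up to 0.0881). VARS2 alone of the 4 lower members was kept throughout. Fewer of all genes tested were also called when a belinostat or combination library was left out. Over all 15 alternatives the cytosolic genes gave 12 to 14 higher and at most 1 lower, with a median log2 fold change between 0.47 and 0.62. MALAT1 and NEAT1 took 3.12% and 2.06% of counts in combination libraries and 12.2% and 13.4% in belinostat libraries, and their part in these changes was not tested.

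**Figure D4:**
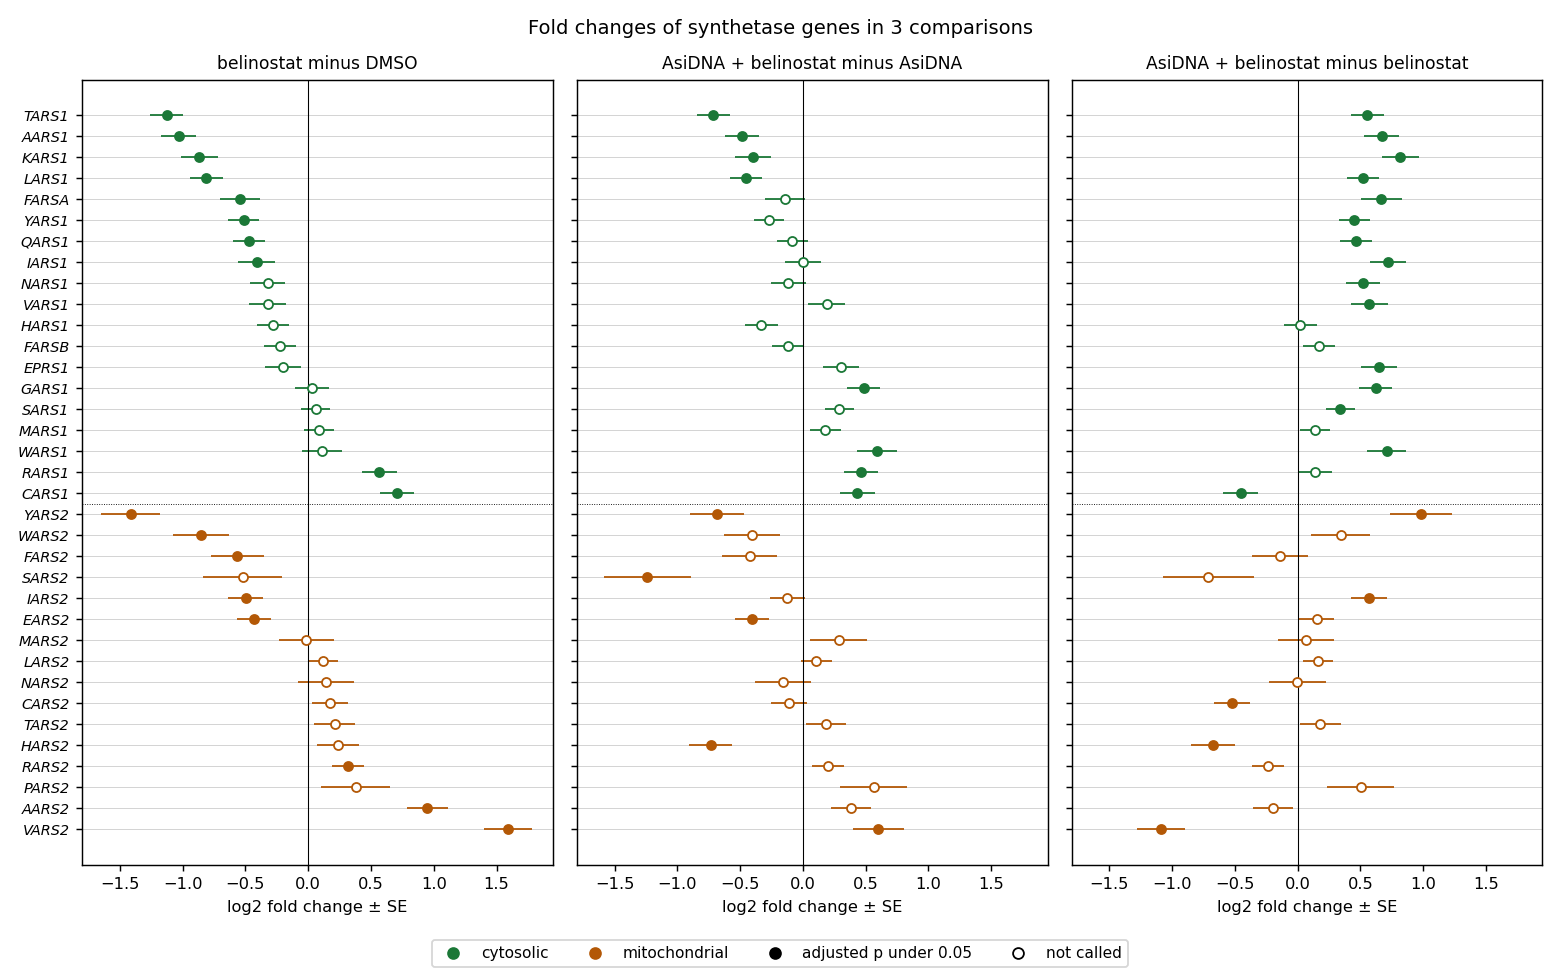
Log2 fold change ± SE of each gene in 3 comparisons, cytosolic genes (green) above mitochondrial genes (brown), in the order of the change with belinostat alone. Filled symbols passed an adjusted p of 0.05. In the right panel, combination against belinostat, 14 of 19 cytosolic genes are filled to the right of 0 and CARS1 is filled to the left.

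Set against DMSO, the combination left 8 members higher (22.9%, against 24.3% of all genes tested) and 5 lower (14.3%, against 23.7%), and 37.1% were called in either direction, against 48.1% of all genes. Of the cytosolic genes 5 rose and 2 fell, with a median log2 fold change of 0.20, and of the mitochondrial genes 3 rose and 3 fell, with a median of 0.06, against -0.01 over all genes. WARS1 had 131 and 139 CPM in combination libraries and 89.5 and 63.6 CPM in DMSO libraries, a log2 fold change of 0.82 ± 0.16 (adjusted p = 0.000792). RARS1 had 210 and 223 CPM in combination libraries and 151 and 114 CPM in DMSO libraries (0.71 ± 0.14, adjusted p = 0.000859). GARS1 had 209 and 224 CPM against 155 and 121 CPM (0.65 ± 0.13, adjusted p = 0.00123). The combination libraries were above both DMSO libraries in all 3 genes.

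AARS2 had 47.9 and 41.0 CPM in combination libraries and 25.3 and 27.2 CPM in DMSO libraries (0.76 ± 0.16, adjusted p = 0.0018), with no overlap. EPRS1 (0.45 ± 0.14, adjusted p = 0.0203), SARS1 (0.40 ± 0.11, adjusted p = 0.0109), PARS2 (0.88 ± 0.26, adjusted p = 0.0142) and VARS2 (0.50 ± 0.20, adjusted p = 0.0494) were the other higher genes. TARS1 fell, with 148 and 147 CPM in combination libraries against 244 and 194 CPM in DMSO libraries (-0.57 ± 0.13, adjusted p = 0.00275). AARS1 fell, with 80.9 and 73.8 CPM against 109 and 89.7 CPM (-0.36 ± 0.13, adjusted p = 0.0396). HARS2 had 25.2 and 26.0 CPM against 41.0 and 28.5 CPM (-0.44 ± 0.17, adjusted p = 0.0485), FARS2 had 7.01 and 7.04 CPM against 11.9 and 11 CPM (-0.71 ± 0.21, adjusted p = 0.014), and SARS2 had 2.0 and 2.69 CPM against 4.55 and 6.63 CPM (-1.23 ± 0.34, adjusted p = 0.00867). These lower genes had no overlap between groups.

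The calls of WARS1, RARS1, GARS1, AARS2 and TARS1 were kept in each fit that left out 1 library, and those of the other 8 were not. The numbers higher and lower were 5 and 1 without combination replicate 1, 5 and 3 without combination replicate 2, 15 and 4 without DMSO replicate 1, and 10 and 10 without DMSO replicate 2, while 3 were lower without either AsiDNA library. With library sizes alone as the scaling, which moved the median of all genes to -0.20, 5 were higher and 11 lower.

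Whether belinostat's effect differed between AsiDNA cells and cells without AsiDNA was tested as an interaction, the change with belinostat in AsiDNA cells minus that in cells without it. No member passed, and 1 gene of the whole table did (0.00678%). At an unadjusted p under 0.05 there were 11 members, 7 cytosolic and 4 mitochondrial. The share of all genes at that threshold was not counted, so nothing is read from this number. DESeq2 called 2 members, both negative, where it called 4.17% of all genes tested. HARS2 had the smallest adjusted p, with an interaction of -0.97 ± 0.24 on the log2 scale (adjusted p = 0.0776), made of a change of -0.74 in AsiDNA cells and of 0.24 in cells without AsiDNA. VARS2 followed with -0.99 ± 0.28 (adjusted p = 0.0933), made of 0.60 and 1.59. AARS1 had 0.55 ± 0.19 (adjusted p = 0.134), made of -0.48 and -1.03. AARS2 had -0.57 ± 0.23 and EPRS1 0.50 ± 0.20 (adjusted p = 0.179 each). The median interaction was 0.39 over the cytosolic genes and -0.02 over the mitochondrial genes, against 0.00 over all genes tested. The count rested on DMSO replicate 2, without which 17 members were positive and 5 negative, as were 20.3% and 14.4% of all genes tested in that fit. Without DMSO replicate 1 none was positive and 2 were negative, against 4.15% and 2.35% of all genes. The uniform result of the combination against belinostat is therefore a difference between those 2 groups, and it was not shown that AsiDNA acted otherwise with belinostat than without it.

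For 13 amino acids the list held a cytosolic and a mitochondrial gene of matching name, and these were taken as pairs. Phenylalanine (FARSA and FARSB, FARS2), glutamate (EPRS1, EARS2) and proline (EPRS1, PARS2) were not among them. There, with belinostat alone, FARSA, FARS2 and EARS2 fell, and FARSB, EPRS1 and PARS2 were not called. The FARS2 call was lost under 5 of the 15 alternatives. In the pairs both genes fell with belinostat alone for isoleucine and tyrosine, and both rose for arginine. The RARS2 call was lost under 13 of the 15 alternatives. The IARS1 call was lost under 3. For alanine they went opposite ways, AARS1 with -1.03 ± 0.14 and AARS2 with 0.95 ± 0.16. In 5 pairs 1 gene was called (CARS1 higher, LARS1 and TARS1 lower, VARS2 higher, WARS2 lower), and in 4 neither was (histidine, methionine, asparagine and serine). With the combination against belinostat both genes rose again for isoleucine and tyrosine, both fell for cysteine, and for valine VARS1 rose (0.57 ± 0.15, adjusted p = 0.00805) while VARS2 fell. In 6 pairs the cytosolic gene alone was higher (AARS1, LARS1, NARS1, SARS1, TARS1 and WARS1). The differences within pairs were not tested. Among all genes tested, 29.8% were higher and 27.6% lower with belinostat alone. In the combination against belinostat these shares were 22% and 21.4%. How often unrelated genes would be called in the same direction was not counted. The pair counts therefore do not show whether paired genes moved together more or less often than others.

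**Figure D5:**
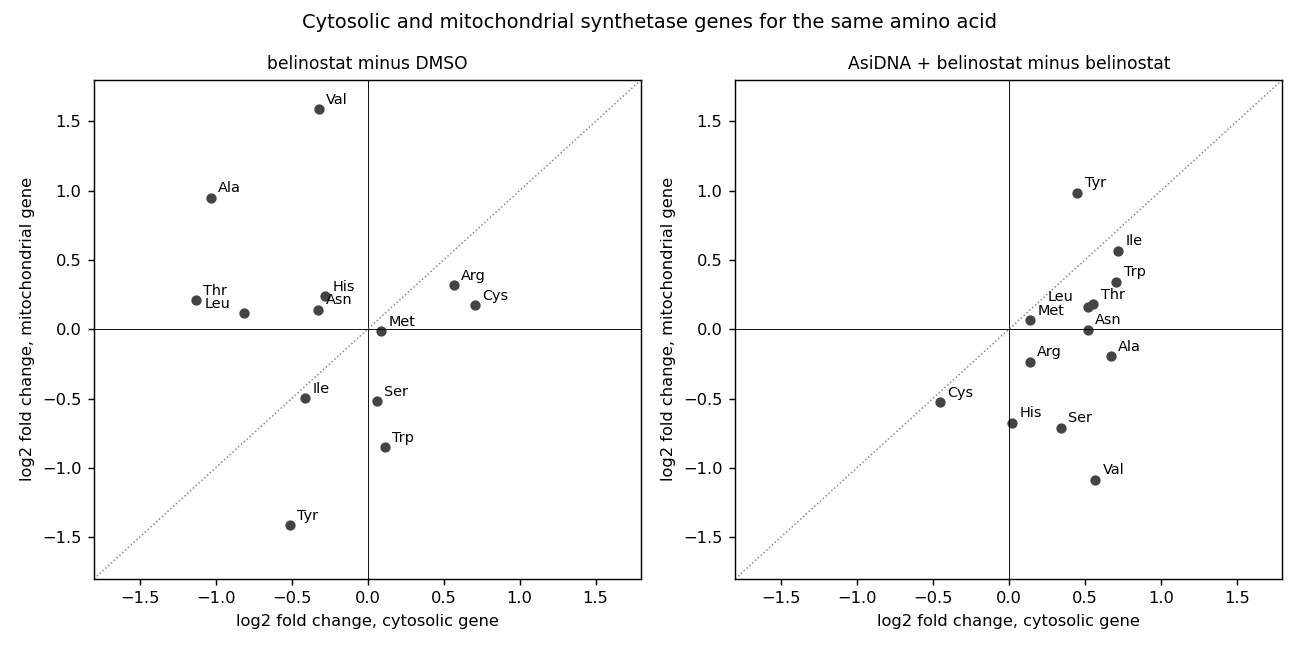
Log2 fold change of the mitochondrial gene (vertical) against that of the cytosolic gene (horizontal) for the 13 amino acids paired by gene name. Belinostat against DMSO is on the left and the combination against belinostat on the right. The dotted line marks equal change. Alanine and valine lie at the upper left in the left panel, where AARS2 and VARS2 are at 0.95 and 1.59, and valine lies at the lower right in the right panel, where VARS2 is at -1.09.

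The histidyl genes are neighbours that point away from each other. HARS1 and HARS2 start 85 bases apart on chromosome 5, on the minus and the plus strand, in RefSeq's table for GRCh38.p14. HARS1 had 75.1 and 67.4 CPM in combination libraries, 74.0 and 65.9 CPM in belinostat libraries, 92.7 and 86.1 CPM in AsiDNA libraries, and 89.1 and 80.8 CPM in DMSO libraries. It was called in no comparison, and its libraries split by belinostat, with both belinostat-treated groups below both others. HARS2 was instead low in combination libraries alone, at 25.2 and 26.0 CPM, against 28.5 to 42.9 CPM in the other 6 libraries. Exons on the opposite strand overlapped 11.7% of HARS2 and 8.38% of HARS1, and the strand setting of the counting is not given in the sources used here, so reads of the pair may be shared.

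In all, 7 members were called in none of the 4 comparisons that involve belinostat: FARSB, HARS1, MARS1, LARS2, MARS2, NARS2 and TARS2. MARS1, the methionyl enzyme whose 3′ exons lie opposite DDIT3, had 101 and 97.2 CPM in combination libraries, 94.3 and 84.8 CPM in belinostat libraries, 87.9 and 86.7 CPM in AsiDNA libraries, and 87.7 and 81.0 CPM in DMSO libraries. The 7 enzymes of the multi-synthetase complex in the list (EPRS1, IARS1, KARS1, LARS1, MARS1, QARS1 and RARS1) had 1 higher and 4 lower with belinostat alone and 5 higher and none lower in the combination against belinostat, with medians of -0.41 and 0.52. For these and the next groups, the shares of all genes tested were 29.8% higher and 27.6% lower with belinostat alone, and 22% higher and 21.4% lower in the combination against belinostat. Of the 13 cytosolic genes listed as amino acid response targets, 1 was higher and 5 lower with belinostat alone, and 11 were higher and 1 lower in the combination against belinostat; for the other 6 cytosolic genes these numbers were 1 and 3, then 3 and none. By catalytic fold, class I genes had 4 higher and 8 lower of 18 with belinostat alone and class II genes 1 and 5 of 16. In the combination against belinostat they had 8 and 3 (class I) and 7 and 1 (class II). EPRS1, which carries an activity of each class, was counted in neither.

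Of the 3 scaffold genes of the complex, none was higher and 2 were lower with belinostat alone (median log2 fold change -0.38), and none was called in the combination against belinostat, where 5 of the 7 enzymes rose; the difference between scaffold and enzymes was not tested. AIMP2 had 4.34 and 6.66 CPM in combination libraries, 4.46 and 5.08 CPM in belinostat libraries, 28.5 and 28.7 CPM in AsiDNA libraries, and 23.3 and 19.5 CPM in DMSO libraries. Both belinostat-treated groups lay far below both others. The log2 fold change was -2.17 ± 0.23 for belinostat against DMSO (adjusted p = 3.59e-06), -2.35 ± 0.22 for the combination against AsiDNA (adjusted p = 2.9e-06), and 0.24 ± 0.27 for the combination against belinostat (adjusted p = 0.484). Exons on the opposite strand overlapped 28.9% of AIMP2. AIMP1 fell by 0.38 with belinostat alone (adjusted p = 0.047) and by 0.43 in AsiDNA cells (adjusted p = 0.0358), and had 0.13 ± 0.16 in the combination against belinostat (adjusted p = 0.521). EEF1E1 was called only in the combination against DMSO, where it fell by 0.54 (adjusted p = 0.0441).

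Mitochondria make glutaminyl-tRNA by charging it with glutamate through EARS2 and then amidating it with the complex of QRSL1, GATB and GATC, and MTFMT formylates the initiator methionyl-tRNA. QRSL1 had 25.7 and 26.1 CPM in combination libraries, 18.8 and 16.6 CPM in belinostat libraries, 40.2 and 38.1 CPM in AsiDNA libraries, and 36.5 and 25.4 CPM in DMSO libraries. It fell by 0.80 with belinostat alone (adjusted p = 0.00199) and by 0.60 in AsiDNA cells (adjusted p = 0.0145), and was higher by 0.54 ± 0.19 in the combination than with belinostat alone (adjusted p = 0.031). GATB was called once, higher in the combination than in DMSO cells (0.63 ± 0.18, adjusted p = 0.0118), and GATC and MTFMT were not called in any comparison. Among proofreading genes, DTD1 and DTD2, which remove wrongly joined amino acids from tRNA, fell with belinostat alone (-1.17 ± 0.22 and -1.34 ± 0.28, adjusted p = 0.000555 and 0.00106). Both were higher in the combination than with belinostat alone (1.02 ± 0.23 and 1.40 ± 0.28, adjusted p = 0.00379 and 0.00207). AARSD1, an alanyl-tRNA editing gene of which 34.2% of the exonic length overlaps a gene on the same strand, rose with belinostat alone (0.99 ± 0.39, adjusted p = 0.0429).

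More genes of the wider amino acid response list fell than rose with belinostat alone. Of 36 tested genes, 6 were higher and 20 lower with belinostat alone (median log2 fold change -0.58), and 13 were higher and 3 lower in the combination than with belinostat alone (median 0.42). Of all genes tested 29.8% were higher and 27.6% lower in the first of these comparisons, and 22% and 21.4% in the second. ATF4, the transcription factor itself, had 77.3 and 84.4 CPM in combination libraries, 114 and 152 CPM in belinostat libraries, 119 and 129 CPM in AsiDNA libraries, and 137 and 208 CPM in DMSO libraries. Its RNA was lower in the combination than with belinostat alone (-0.71 ± 0.19, adjusted p = 0.00829), the opposite direction to most cytosolic synthetase genes. It was not called with belinostat alone (-0.38 ± 0.18, adjusted p = 0.0895). These values are RNA levels and do not give the amount or activity of the ATF4 protein. DDIT3 rose with belinostat alone (1.24 ± 0.21, adjusted p = 0.000211) and fell in the combination against it (-0.98 ± 0.21, adjusted p = 0.00286). ASNS, the asparagine synthetase gene and a standard marker of this response, had between 1.99 and 4.19 CPM, with 44.6% of its exonic length overlapping a gene on the same strand, so its counts are uncertain, and it was not called (adjusted p = 0.17 with belinostat alone).

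The 4 genes of that list with the smallest adjusted p with belinostat alone were SLC7A1, CEBPG, ATF5 and GPT2. SLC7A1, a transporter of cationic amino acids, fell by 1.42 on the log2 scale (adjusted p = 6.3e-07), CEBPG, a partner of ATF4, by 2.03 (adjusted p = 7.55e-07) and ATF5 by 2.88 (adjusted p = 2.63e-06), while GPT2, the mitochondrial alanine transaminase, rose by 1.19 ± 0.12 (adjusted p = 2.75e-06). In the combination against belinostat, CEBPG (0.76 ± 0.19, adjusted p = 0.00577) and SLC7A1 (0.37 ± 0.12, adjusted p = 0.0275) were higher, and ATF5 (-0.18 ± 0.39, adjusted p = 0.731) and GPT2 (0.15 ± 0.12, adjusted p = 0.313) did not pass.

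Of 20 cytosolic initiation, elongation, termination and recycling factors tested, none was higher and 13 were lower with belinostat alone (median -0.66), and 10 were higher and 2 lower in the combination than with belinostat alone (median 0.41), against 29.8% higher and 27.6% lower, and then 22% and 21.4%, of all genes tested. EEF1A1, which delivers charged tRNA to the ribosome, had 1831 and 1922 CPM in combination libraries, 861 and 891 CPM in belinostat libraries, 2348 and 2326 CPM in AsiDNA libraries, and 2254 and 1751 CPM in DMSO libraries. Its belinostat libraries were below the other 6, with a log2 fold change of -1.19 ± 0.14 against DMSO (adjusted p = 1.25e-05) and of 1.10 ± 0.14 for the combination against belinostat (adjusted p = 0.000309). EEF1B2, its exchange factor, had -1.47 ± 0.13 (adjusted p = 8.37e-07) and 0.97 ± 0.13 (adjusted p = 0.000318) in the same comparisons. EIF5 and ABCE1 fell with belinostat alone (-1.28 ± 0.12 and -1.29 ± 0.14, adjusted p = 1.24e-06 and 4.24e-06) and were not called in the combination against it (0.14 ± 0.12 and 0.33 ± 0.14, adjusted p = 0.362 and 0.0705).

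Of 11 mitochondrial translation factors, 3 were higher and 2 lower with belinostat alone (median 0.16), and 2 were higher and 2 lower in the combination than with belinostat alone (median 0.22), shares at or below those of all genes tested (29.8% and 27.6%, then 22% and 21.4%). GFM2, a factor of ribosome recycling, rose with belinostat alone (0.87 ± 0.14, adjusted p = 0.000199) and TACO1 fell (-1.09 ± 0.19, adjusted p = 0.000318), as did MTIF2 (-0.79 ± 0.15, adjusted p = 0.000421), while MRRF rose (0.41 ± 0.14, adjusted p = 0.0249). Of 24 tRNA maturation genes, 3 were higher and 8 lower with belinostat alone (median -0.24), and 11 were higher and 4 lower in the combination than with belinostat alone (median 0.35), against the same shares of all genes. XPOT, which exports tRNA from the nucleus, had 172 and 195 CPM in combination libraries, 145 and 139 CPM in belinostat libraries, 364 and 344 CPM in AsiDNA libraries, and 352 and 278 CPM in DMSO libraries (-1.15 ± 0.14 for belinostat against DMSO, adjusted p = 1.15e-05). Both belinostat-treated groups were below both others in XPOT. POP1 fell with belinostat alone (-0.67 ± 0.15, adjusted p = 0.00156), and PRORP and TSEN54 rose (0.91 ± 0.23 and 0.84 ± 0.23, adjusted p = 0.00376 and 0.0062).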

How the data were processed

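RNA was sequenced from 8 libraries of U87 cells, prepared with a stranded total RNA kit after ribosomal RNA removal, per the labels' protocols. Per the submitters' processing notes, cutadapt 1.16, STAR 2.7.0, Subread, featureCounts 1.6.3 and GRCh38 were used. The deposited values are raw counts per Ensembl gene made by the authors. The sources used here do not give the annotation release and strand setting. Gene positions, exon lengths and overlaps are those of GENCODE release 29 (GRCh38), in which 58611 of the 58884 gene identifiers were found, and its symbols were matched to current ones.

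The members and lists were chosen with earlier results of these data known. Genes kept by edgeR's filterByExpr (14741) were scaled by TMM and fitted with edgeR 4.0.16 (R 4.3.3), all 8 libraries and 4 group means in 1 quasi-likelihood model with 4 residual degrees of freedom. The 5 comparisons and the interaction were called at a Benjamini-Hochberg adjusted p under 0.05 over all tested genes. Standard errors are the log2 fold change divided by the root of the F statistic. CPM are counts over TMM-scaled library sizes, and floors cover counting error only.

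The rule for values in every library took the members with the smallest adjusted p in each comparison (6 cytosolic and 4 mitochondrial for belinostat against DMSO, 4 in every other), members called in the rarer direction, and WARS1, GARS1, KARS1, EPRS1, FARSA, FARSB, HARS1 and HARS2. Outside the members it took up to 4 genes of each list and a few fixed ones. Alternatives were other scalings, DESeq2 1.42.0, other filters, fits of only the groups compared, a replicate block, and leaving out each library. The script was tested on simulated data with the same spread for every gene and group. In these, 86% of 2-fold and 98% of 4-fold belinostat changes and 8 of 14020 unchanged genes were called (14217 genes tested). Promoter windows were read from RefSeq's table (GRCh38.p14). The planned comparison of protein sequences was not made. A few genes of the lists outside the members are not reported here.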

Additional observations from a re-analysis of the deposited data

How the results depend on the processing

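For the 35 members, the 64 calls were recomputed under 15 alternatives each (960 values): 830 kept their direction and their side of the threshold, 130 kept their direction and missed it, and none reversed, and 34 calls were kept under every alternative. Of the 146 member values not called, 44 changed sign under some alternative. The counts for belinostat against DMSO and the higher members of the combination against belinostat stayed within 1.5 times under every alternative. For the combination against AsiDNA the higher members (5) were 3 with library sizes alone and 11 with only the groups compared in the fit. For the combination against DMSO the lower members (5) were 11 with library sizes alone, 2 with DESeq2, 8 with no filter on low counts and 3 with only the groups compared, and the higher members (8) were 5 with library sizes alone and 4 with only the groups compared. The interaction, with no member called, gave 2 negative with DESeq2 (4.17% of all genes called), and 2 negative and 2 positive with no filter (5.02% of all genes called). The cause was not tested. Library sizes alone moved the median log2 fold change of all genes to -0.08 for belinostat against DMSO, where 4 members were then higher and 18 lower.

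Leaving out 1 library at a time, with the remaining library of its group assumed to vary like the others, gave 0 to 9 higher and 3 to 10 lower for the combination against AsiDNA, 5 to 15 higher and 1 to 10 lower for the combination against DMSO, 14 to 16 higher and 1 to 4 lower for the combination against belinostat, 0 to 15 higher and 0 to 2 lower for AsiDNA against DMSO, 4 to 7 higher and 11 to 18 lower for belinostat against DMSO, and 0 to 17 positive and 0 to 5 negative for the interaction. The deviations of same-numbered libraries correlated between -0.372 and 0.214 over the 6 pairs of groups. With 2 libraries a group this cannot decide whether libraries of the same number were paired, and the labels do not say. With the replicate block 4 members were higher and 13 lower for belinostat against DMSO, 5 and 9 for the combination against AsiDNA, 16 and 4 for the combination against belinostat, 7 and 4 for the combination against DMSO, and none for AsiDNA against DMSO or the interaction. With 2 libraries a group and a single cell line, small differences were not detectable, and the low counts of SARS2, YARS2, FARS2, PARS2 and NARS2 gave SEs of 0.20 to 0.36 on the log2 scale.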
